A study of Mus musculus with 6 samples.

Results

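The heat shock proteins and co-chaperones of mouse cortical neurons were compared between KDM6B knockout (KO) and wild-type (WT) cultures. Members were chosen by a rule on gene names, with earlier results of these data known. The rule took every entry of the deposited table whose name starts with Hspa to Hspe or with Hsp and a digit, Hsph1, all names starting with Dnaj, the subunits Cct2 to Cct8 and the genes Bag1 to Bag6. It left out the endoplasmic reticulum chaperones Hspa5, Hsp90b1, Dnajb9, Dnajb11 and Dnajc3. Of 20040 entries 82 carried such a name, and 73 of these had a mean of at least 0.5 TPM (a transcript's share of its library, corrected for gene length) over the 6 libraries. The other 9 names, Cct6b, Cct8l1, Dnajb7, Dnajc22, Dnajc5b, Dnajc5g, Hspa12b, Hspb2 and Hspb7, averaged at most 0.249 TPM and were not tested. The name rule reaches beyond the cytosol, and 15 of the 73 measured members were listed as known to work elsewhere. The list held mitochondrial members (Hspa9, Hspd1, Hspe1, Dnaja3, Dnajc11, Dnajc15, Dnajc19 and Dnajc30) and members of the endoplasmic reticulum or its membrane (Hspa13, Dnajb12, Dnajb14, Dnajc1, Dnajc10, Dnajc16 and Dnajc25). It may not be complete. The KO group held 3 libraries and the WT group 3, all of neurons grown on coated plates or coverslips from cortices of C57BL/6 embryos taken at embryonic day 18, sequenced as mRNA. The labels give neither the allele nor how the gene was deleted, nor the days in culture or the agents added beyond the culture media. Nothing in them states that replicates were separate cultures, and the p-values therefore reflect library-to-library spread that could be technical.

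Chaperones bind unfolded or partly folded proteins and keep them from clumping. Hsp70 proteins do so in cycles driven by ATP, J-domain (Dnaj) proteins hand them their clients and speed up ATP hydrolysis, and Hsp110 proteins and BAG proteins release the spent nucleotide so that a new cycle can start. Hsp90 dimers finish the folding of kinases and steroid receptors, the CCT ring folds actin and tubulin in a closed chamber, and small heat shock proteins hold unfolding proteins without using ATP. Heat and other proteotoxic stress activate heat shock factor 1, which binds heat shock elements, inverted repeats of GAA, in promoters of inducible members such as Hspa1a, Dnajb1 and Hspb1, whereas constitutive members such as Hspa8 and Hsp90ab1 are abundant without stress. Neurons in culture are known for inducing Hspa1a only weakly on heat shock. KDM6B removes methyl groups from lysine 27 of histone H3, a mark of silenced genes, and the comparison asks what changes in its absence.

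Promoter sequences are shown for the pair of inducible Hsp70 genes, for the inducible small heat shock gene Hspb1, and for Hspb8 and Dnajc27, which fell in KO. These sequences were searched for the letters of heat shock elements. They come from RefSeq on GRCm38.p6, the build that mm10 names, and read 5′ to 3′ on the gene's strand, ending with the last base before the annotated start. For each gene only the first listed start was used. Capitals mark GAANNTTC or TTCNNGAA, the 2 forms of a pair of heat shock units, each of which reads the same on both strands. The stretches are chr17:34972157-34972406 (minus strand), chr17:34959239-34959488 (minus strand), chr5:135887669-135887918 (plus strand), chr5:116422865-116423114 (minus strand) and chr12:4082324-4082573 (plus strand).
Hspa1a: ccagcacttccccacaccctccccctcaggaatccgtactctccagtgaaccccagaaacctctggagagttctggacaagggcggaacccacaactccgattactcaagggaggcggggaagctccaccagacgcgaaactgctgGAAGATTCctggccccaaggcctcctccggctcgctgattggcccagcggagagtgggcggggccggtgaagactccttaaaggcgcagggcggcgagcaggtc
Hspa1b: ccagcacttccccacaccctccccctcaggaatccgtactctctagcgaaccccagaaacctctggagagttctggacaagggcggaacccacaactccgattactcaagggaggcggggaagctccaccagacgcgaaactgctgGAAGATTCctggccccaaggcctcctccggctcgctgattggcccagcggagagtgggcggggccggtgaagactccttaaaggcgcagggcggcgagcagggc
Hspb1: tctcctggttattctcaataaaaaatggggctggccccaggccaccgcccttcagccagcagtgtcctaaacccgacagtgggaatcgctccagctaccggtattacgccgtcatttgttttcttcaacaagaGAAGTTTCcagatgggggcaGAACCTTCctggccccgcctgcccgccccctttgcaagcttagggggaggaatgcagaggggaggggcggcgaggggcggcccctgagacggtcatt
Hspb8: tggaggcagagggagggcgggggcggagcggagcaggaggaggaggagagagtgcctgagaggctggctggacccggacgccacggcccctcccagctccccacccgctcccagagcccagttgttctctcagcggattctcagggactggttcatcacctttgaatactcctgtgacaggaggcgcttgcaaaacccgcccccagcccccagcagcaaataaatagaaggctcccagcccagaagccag
Dnajc27: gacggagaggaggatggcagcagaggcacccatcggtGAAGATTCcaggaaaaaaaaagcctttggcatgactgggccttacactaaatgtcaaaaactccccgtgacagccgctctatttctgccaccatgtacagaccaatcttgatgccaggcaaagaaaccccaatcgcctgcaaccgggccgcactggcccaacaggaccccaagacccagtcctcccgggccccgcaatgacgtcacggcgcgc
Hspa1a and Hspa1b matched at 247 of 250 upstream bases, 98.8%, and each held 1 paired element that starts 104 bases before the gene. Hspb1 held 2, at 117 and 97 bases, Dnajc27 held 1 at 213 bases, and Hspb8 had none in this window. Among the 60 measured members with a RefSeq promoter entry, 11 held a paired element within 250 bases, or 18.3%, against 12.9% of 27025 promoters in all. These were Hspa1a, Hspa1b, Hspb1, Hspb3, Hspe1, Hsph1, Dnaja1, Dnajb6, Dnajc10, Dnajc27 and Cct5. The form with 3 units, GAANNTTCNNGAA or TTCNNGAANNTTC, which contains the paired forms, was present in Hspe1 and Dnajb6, 3.33% of members, and in 0.4% of all promoters. The Hspe1 window lay wholly in annotated exons of Hspd1 and Hspe1, and the Hsph1 match was not within the 210 bases of its window outside exons. Dnajb1, named above as inducible, had no paired element in its window. A match of letters is a description and not a binding site.

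The members made up 13492, 13682 and 13493 TPM in KO replicates 1, 2 and 3, against 13628, 13417 and 13366 TPM in WT replicates 1, 2 and 3. That is 1.35% of all TPM over the 6 libraries, and the ranges of the groups overlapped. Hspa8, the constitutive cytosolic Hsp70, Hsp90ab1 and Hsp90aa1 were the only members above 1000 TPM and supplied 23.4%, 15.0% and 11.6% of the members' total. Between 100 and 1000 TPM lay 23 members, among them all 7 measured CCT subunits, the synaptic vesicle J-domain gene Dnajc5 and the Hsp110 gene Hsph1. A further 26 members lay between 20 and 100 TPM and 17 between 2 and 20 TPM. Hspa1b, Hspa1l, Hspb1 and Hspb3 averaged under 2 TPM over the 6 libraries. The inducible Hspa1a stood far below its constitutive relative: Hspa8 held 888, 899 and 903 times the TPM of Hspa1a in KO libraries, against 1388, 1176 and 1227 times in WT libraries. The level of Hspa1a is uncertain, because the treatment of reads shared with Hspa1b is not given. No test was run on this ratio.

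**Figure D1:**
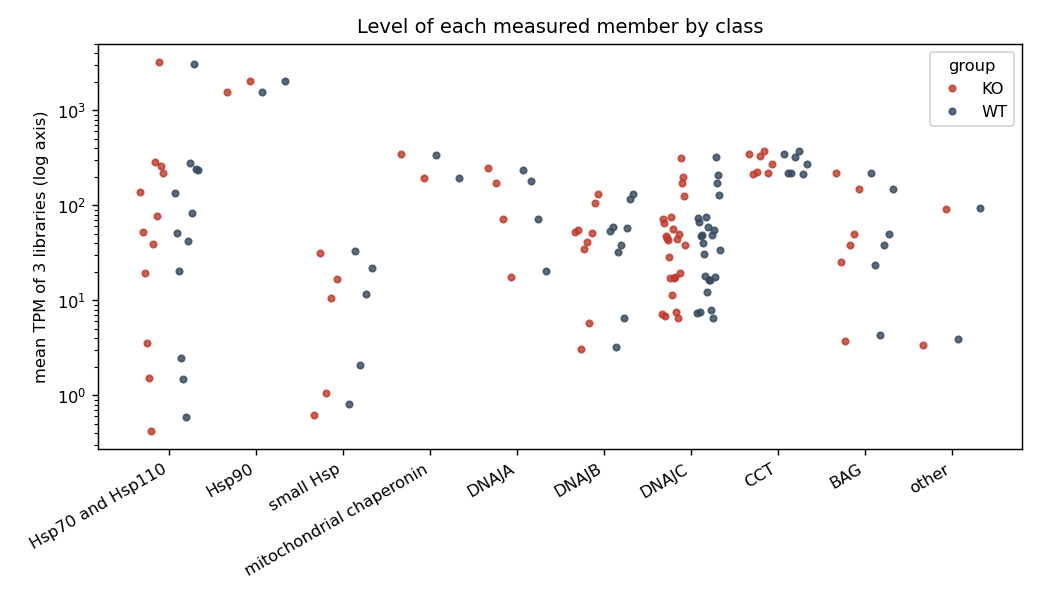
Mean TPM of 3 libraries on a log axis for each of the 73 measured members, by protein class, with KO (red) left of WT (dark blue). Hspa8 and both Hsp90 genes lie above 1000 TPM in both groups, and all CCT subunits between 100 and 1000 TPM. Genes classed by name as small heat shock genes, of which Hspb11 is highest, lie at 32.2 TPM or less over all 6 libraries.

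Whole counts recovered from the TPM values summed to between 19761692 and 23503623 per library, and libraries correlated at 0.987 to 0.988 within and 0.983 to 0.984 across groups (log2 values of 14983 genes). Kdm6b had 11.2, 11.1 and 12.0 TPM in KO, against 30.9, 30.3 and 30.7 TPM in WT, so transcripts of the targeted gene remained in KO. The deleted stretch of the gene is not stated. The 4 Y-linked genes, Ddx3y, Eif2s3y, Kdm5d and Uty, summed to 0.149 to 0.754 TPM in KO and to 91.0 to 93.9 TPM in WT, and Xist averaged 232 ± 8.34 TPM in KO and 74.0 ± 3.49 TPM in WT (SD, n = 3 each). Sex mix and genotype therefore cannot be told apart here, although all 73 members lie on autosomes. The 8 neuronal markers summed to 6816 to 6914 TPM in KO and 6841 to 6882 TPM in WT, but not evenly: Tubb3 rose, while Rbfox3, Gad1 and Slc17a7 fell, Slc17a7 to 56.0% of WT (limma adjusted p = 5.3e-05). The 6 astrocyte markers summed to 1092 to 1181 TPM in KO and 1127 to 1148 TPM in WT. Transcripts of glia were thus present beside those of neurons. In bulk libraries fewer cells of a type and less RNA per cell cannot be told apart.

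Of the 73 members, 2 rose and 6 fell in KO. Calls were made at an adjusted p under 0.05 (Benjamini-Hochberg), from a limma fit to log2(TPM + 0.5) over all 14983 tested genes. Hspa1a and Hspa9 rose, which is 2.74% of members beside 4.15% of all tested genes. Hspb8, Dnajb4, Dnajb5, Dnajc27, Hspa4l and Hsph1 fell, which is 8.22% of members beside 6.74% of all tested genes. Hspa1a lies at chr17:34969190-34972156 (minus strand, GRCm38), Hspb8 at chr5:116408491-116422864 (minus), Dnajb4 at chr3:152178511-152210302 (minus), Dnajb5 at chr4:42949814-42959425 (plus), Dnajc27 at chr12:4082583-4110606 (plus), Hspa4l at chr3:40744495-40796103 (plus) and Hsph1 at chr5:149614287-149636376 (minus). Both shares lay near those of all genes, so the count is not a result about chaperones as a group. The 3 KO libraries lay above all WT libraries for 8 of 73 members, where 12.5% of all tested genes were so placed. They lay below all WT libraries for 14 members, or 19.2%, and for 19.2% of all tested genes. Differences were small: the median log2 fold change was -0.016 over members and -0.019 over all tested genes, and the median absolute value 0.059 and 0.084. Only 4 members differed by 1.2-fold or more on this scale, 5.48%, where 15.4% of all tested genes did. These shares were not matched for level: 52 of 73 members averaged 20 TPM or more, against 8008 of 14983 tested genes. At that level the median absolute log2 fold change was 0.033 over members and 0.059 over all tested genes.

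Several calls depended on the settings. After median centring 3 members rose and 2 fell, beside 867 higher and 767 lower over all genes, where the TPM as deposited gave 622 and 1010. After quantile normalization the counts were 2 and 4 members, beside 788 and 813 over all genes. With any 1 library left out, 1 member rose, Hspa9 each time, and 1 to 3 fell, Hspb8 each time. Calls over all genes dropped in the same fits, to 345 to 440 higher and 493 to 678 lower. The lowest counts of falling members, 1 each, came without KO replicate 1 and without WT replicate 1. Falls numbered 2 without KO replicate 2 or KO replicate 3, and 3 without WT replicate 2 or WT replicate 3.

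**Figure D2:**
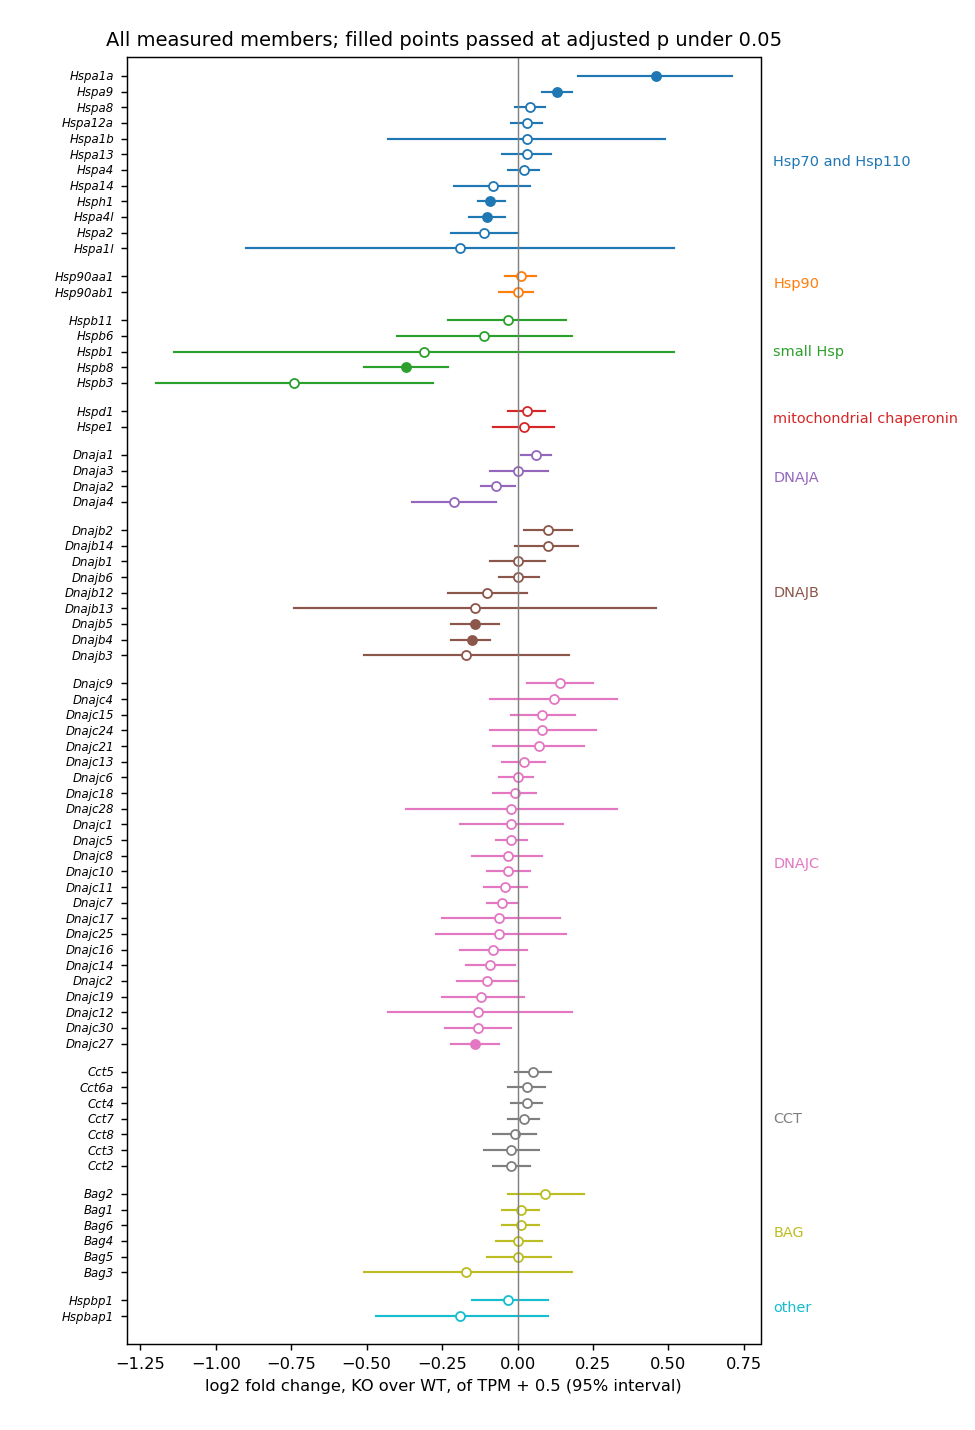
Log2 fold change of KO over WT with its 95% interval for each of the 73 measured members, by class; filled points passed at an adjusted p below 0.05. Most intervals are narrow and cross 0, and the widest belong to members with few counts such as Hspb1, Hspb3 and Hspa1l.

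Among 12 Hsp70 and Hsp110 genes 2 rose and 2 fell, where 4.15% of all tested genes rose and 6.74% fell. With so few genes in a class, these counts are not a result about the class. Hspa9, which encodes mortalin, the Hsp70 of the mitochondrial matrix that pulls in imported proteins, had 259, 262 and 263 TPM in KO libraries, against 239, 241 and 236 TPM in WT libraries. The groups did not overlap and the rise was 1.09-fold (log2 fold change 0.13 ± 0.02 SE; limma adjusted p = 0.008), on 17241 counts over KO and 15649 over WT. It kept its call with any library left out (adjusted p between 0.021 and 0.038) and missed the threshold without the variance trend (adjusted p = 0.055).

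Hspa1a, the stress-inducible Hsp70, rose as well, although its level was low in both groups. It held 3.59, 3.62 and 3.51 TPM in KO, against 2.26, 2.64 and 2.52 TPM in WT, with no overlap. The ratio of means was 1.44-fold (log2 fold change 0.46 ± 0.11 SE; limma adjusted p = 0.038), resting on 217 counts over KO and 149 over WT. The call was lost with any library left out (adjusted p between 0.065 and 0.114). Hspa1b, the neighbouring gene that encodes a near-identical protein, had 1.14, 1.49 and 1.99 TPM in KO, against 1.35, 1.70 and 1.38 TPM in WT, and the groups overlapped (log2 fold change 0.03 ± 0.20 SE; limma adjusted p = 0.947). How reads that match both genes were counted is not given in the sources used here, so each single value is uncertain, and so is their sum. Together they summed to 5.11 ± 0.388 TPM in KO and 3.95 ± 0.370 TPM in WT (SD, n = 3 each), with 4.73, 5.10 and 5.51 TPM in KO libraries, against 3.60, 4.34 and 3.90 TPM in WT libraries. No test was run on this sum.

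Both Hsp110 genes that passed were lower in KO. Hsph1, the nucleotide exchange factor Hsp105, fell to 94.2% of WT, with 221, 219.9 and 219.7 TPM in KO libraries, against 235, 233 and 233 TPM in WT libraries (log2 fold change -0.09 ± 0.02 SE; limma adjusted p = 0.033). Hspa4l, its relative Apg-1, fell to 93.2%, with 76.4, 77.4 and 75.9 TPM in KO, against 81.9, 81.2 and 83.5 TPM in WT (log2 fold change -0.10 ± 0.03 SE; limma adjusted p = 0.049). The libraries of each group were close together and the groups did not overlap for either gene. Without any 1 library both calls were lost (adjusted p between 0.056 and 0.111 for Hsph1 and between 0.085 and 0.127 for Hspa4l), and neither passed after median centring or with limma voom on the recovered counts. Hspa4, the third gene of that family, held 286 ± 2.95 TPM in KO and 282 ± 2.51 TPM in WT (log2 fold change 0.02, 95% interval -0.03 to 0.07).

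Hspa8, which also uncoats clathrin vesicles at synapses, had 3186, 3249 and 3172 TPM in KO, against 3129.7, 3104 and 3097 TPM in WT. The KO libraries all lay above the WT libraries, but the difference did not pass (log2 fold change 0.04, 95% interval -0.01 to 0.09; limma adjusted p = 0.250). With voom on recovered counts it did (log2 fold change 0.06, limma adjusted p = 0.021), and after quantile normalization the sign turned (-0.02). The ratio of Hspa8 to Hsph1 was 14.6 ± 0.195 in KO and 13.3 ± 0.00805 in WT (SD, n = 3 each). It was not tested, and an SD of 3 libraries is itself imprecise. Hspa2, an Hsp70 best known from testis, Hspa12a, Hspa13, Hspa14 and Hspa1l did not pass, at log2 fold changes between -0.19 and 0.03.

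**Figure D3:**
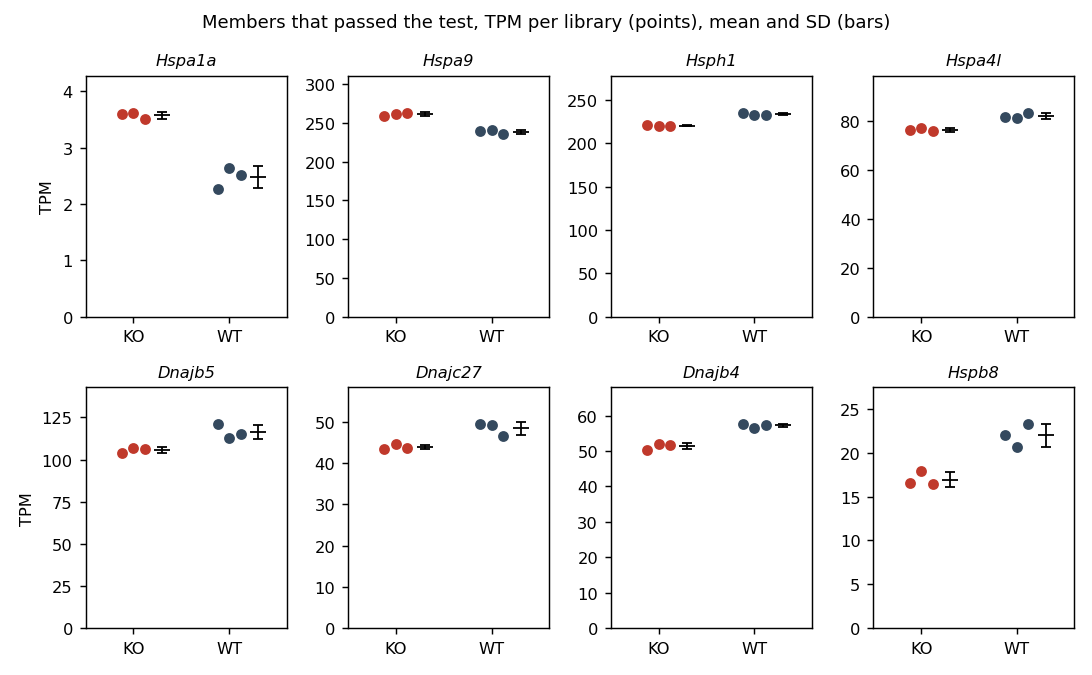
TPM per library (points) of the 8 members that passed, KO left of WT, with the mean and SD beside them and axes from 0. Hspa1a and Hspa9 are higher in KO, at 144% and 109% of WT, and the other 6 lower, at 76.9% (Hspb8) to 94.2% (Hsph1) of WT.

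Small heat shock genes held the largest fall among members that passed. Hspb8, a partner of Bag3 in the selective autophagy of misfolded proteins, had 16.6, 17.9 and 16.4 TPM in KO libraries, against 22.1, 20.7 and 23.3 TPM in WT libraries. The groups were separate, and the KO mean was 76.9% of WT (log2 fold change -0.37 ± 0.06 SE; limma adjusted p = 0.008; 668 counts over KO and 862 over WT). Its call held in each of 17 alternatives, at adjusted p between 0.0016 and 0.043. Log2 fold changes of the 5 measured genes classed by name as small heat shock genes ran from -0.74 to -0.03, but only Hspb8 passed. The groups overlapped for Hspb1, Hspb6 and Hspb11, and the median over all tested genes was also below 0, at -0.019. Together the 5 summed to 58.9 to 63.4 TPM in KO and 66.0 to 73.8 TPM in WT. Of these sums Hspb11 held on average 31.8 TPM in KO and 32.7 TPM in WT, and Hspb8 16.9 TPM in KO and 22.0 TPM in WT.

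Hspb3, known from muscle, came close to the threshold with 0.714, 1.30 and 1.16 TPM in KO, against 1.80, 2.22 and 2.22 TPM in WT. The groups did not overlap, but the values rest on 18 counts over KO and 35 over WT (log2 fold change -0.74 ± 0.20 SE; limma adjusted p = 0.052). It passed with a pseudocount of 1 TPM and with a robust variance trend. Hspb1, the inducible Hsp27 gene that encodes an actin-protecting chaperone, had 1.24, 0.280 and 0.335 TPM in KO, against 0.932, 0.481 and 1.03 TPM in WT. These rest on 12 and 16 counts and overlap widely (95% interval -1.14 to 0.52). Hspb6 averaged 10.6 ± 0.771 TPM in KO and 11.7 ± 2.11 TPM in WT, and Hspb11, which despite its name is part of the transport machinery of cilia, 31.8 ± 1.56 TPM in KO and 32.7 ± 4.12 TPM in WT (SD, n = 3 each).

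Outside the name rule, the small heat shock gene Cryab, which encodes alpha-B crystallin, had 18.1, 23.5 and 20.5 TPM in KO, against 45.4, 38.2 and 40.3 TPM in WT. It fell to 50.1% of WT with no overlap (log2 fold change -0.99 ± 0.10 SE; limma adjusted p = 0.0012). Its relatives Cryaa and Odf1 stayed under 0.5 TPM. In brain Cryab is known chiefly from glia. Of 6 astrocyte markers Slc1a3, which makes up most of the sum given above, rose and Aldh1l1 fell, and the median log2 fold change of the list was -0.19. Gfap averaged 82.8 ± 14.0 TPM in KO and 109 ± 9.89 TPM in WT, and Aqp4 84.9 ± 5.05 TPM in KO and 96.3 ± 3.64 TPM in WT (SD, n = 3 each), with groups apart but short of the threshold (limma adjusted p = 0.070 and 0.052). Of 6 fibroblast and mural markers Dcn, Lum and Col1a1 rose, with sums of 68.1 to 81.4 TPM in KO and 68.7 to 84.6 TPM in WT, and of 3 tested endothelial markers Kdr fell, with sums over all 5 of 7.45 to 8.31 TPM in KO and 10.2 to 11.9 TPM in WT. Of 6 progenitor markers Nes fell, with sums of 226 to 245 TPM in KO and 234 to 257 TPM in WT. Microglial markers summed to at most 2.70 TPM in KO and 1.80 TPM in WT, and no marker in these lists was at 0 in all 6 libraries. The part of these cell types in the falls of Hspb8 and Cryab was not tested.

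The Hsp90 genes did not pass. Hsp90ab1, the constitutive form, had 2002, 2041 and 2042 TPM in KO, against 2078, 2016 and 1996 TPM in WT, and the interval of its log2 fold change ran from -0.06 to 0.05. Hsp90aa1, the inducible form, had 1592, 1582 and 1545 TPM in KO, against 1571, 1561 and 1554 TPM in WT, with an interval from -0.04 to 0.06. Both pairs of groups overlapped. The ratio of Hsp90aa1 to Hsp90ab1 was 0.776 ± 0.0191 in KO and 0.770 ± 0.0120 in WT (SD, n = 3 each).

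Of 12 members on a heat-inducible list, chosen with earlier results of these data known and including the mainly constitutive Hspa8, Hspa1a rose, Hspa4l and Hsph1 fell and 9 did not pass. Over all tested genes 10.9% passed in either direction. The calls of Hspa1a, Hspa4l and Hsph1 were each lost with any 1 library left out. The count is therefore not a result about inducible genes as a group. Dnajb1, the inducible Hsp40 that works with Hspa1a, had 54.8, 52.6 and 51.6 TPM in KO, against 53.9, 54.5 and 51.0 TPM in WT (95% interval -0.09 to 0.09 on the log2 scale). Bag3, an inducible exchange factor of Hsp70 that steers clients to autophagy, had 3.39, 3.80 and 4.08 TPM in KO, against 4.06, 3.57 and 5.35 TPM in WT (95% interval -0.51 to 0.18). The groups overlapped for both genes. The transcription factors did not pass either: Hsf1 had 22.5, 21.6 and 21.1 TPM in KO, against 22.0, 23.8 and 22.5 TPM in WT, and Hsf2 53.9, 51.6 and 53.6 TPM in KO, against 55.8, 56.7 and 57.2 TPM in WT (limma adjusted p = 0.108 for Hsf2). The Hsf1-binding protein gene Hsbp1 did not pass, and Hsf4 and Hsf5 stayed under 0.5 TPM while Hsf3 was listed at 0.

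**Figure D4:**
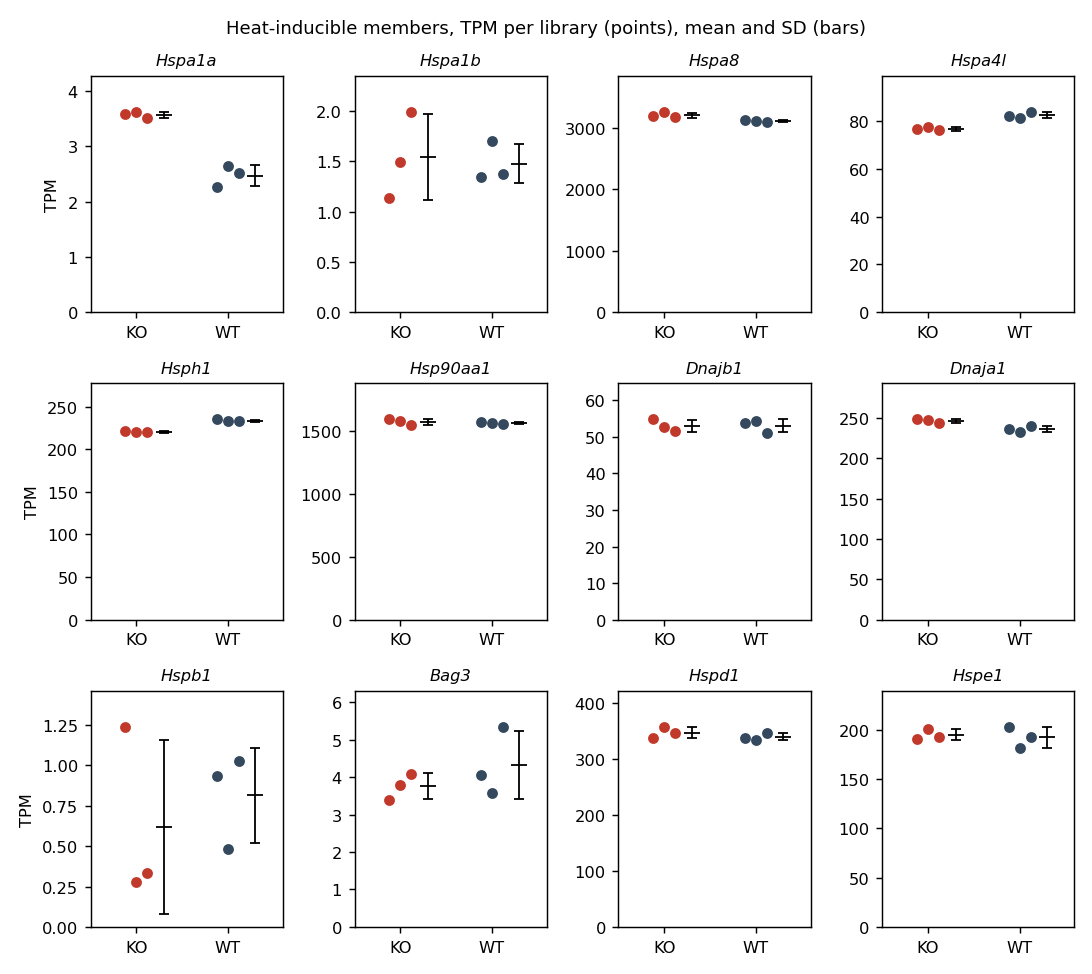
TPM per library (points) of the 12 members on the heat-inducible list, which includes the mainly constitutive Hspa8, KO left of WT, with the mean and SD beside them and axes from 0. Groups are apart for Hspa1a, Hspa8, Hspa4l, Hsph1 and Dnaja1, and overlap for the other 7.

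J-domain proteins fall into class A, built like bacterial DnaJ, class B, which lacks its zinc-binding part, and class C, which shares only the J-domain. None of 4 class A genes passed. Dnaja1 had 248, 247 and 243 TPM in KO, against 236, 232 and 239.6 TPM in WT, apart but short of the threshold (log2 fold change 0.06 ± 0.02 SE; limma adjusted p = 0.142). It passed after median centring and with voom on recovered counts (log2 fold change 0.08 and 0.07). Its locus overlaps genes on the opposite strand, and strand use in counting is not given in the sources used here. Dnaja4, the class A gene with the smallest p, had 19.0, 16.4 and 17.9 TPM in KO, against 20.9, 21.0 and 19.9 TPM in WT (log2 fold change -0.21 ± 0.06 SE; limma adjusted p = 0.066). It passed with voom (log2 fold change -0.21, limma adjusted p = 0.028). The mitochondrial Dnaja3 held 72.0 ± 2.59 TPM in KO and 71.8 ± 2.89 TPM in WT (SD, n = 3 each).

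Among 9 class B genes 2 fell, where 6.74% of all tested genes did. The class is too small for this count to be a result about it. Dnajb4, a close relative of Dnajb1, had 50.3, 51.9 and 51.8 TPM in KO libraries, against 57.6, 56.6 and 57.5 TPM in WT libraries. The groups lay apart, and KO held 89.8% of WT (log2 fold change -0.15 ± 0.03 SE; limma adjusted p = 0.016; 3115 counts over KO and 3447 over WT). The call was lost without KO replicate 1 (adjusted p = 0.053) and without WT replicate 1 (adjusted p = 0.064). Dnajb5, another relative of Dnajb1 known to carry class II histone deacetylases in heart cells, had 104, 107 and 106 TPM in KO, against 121, 113 and 115 TPM in WT, 90.7% of WT with no overlap (log2 fold change -0.14 ± 0.03 SE; limma adjusted p = 0.036). It lost its call in all fits with 1 library left out but the one without WT replicate 2, at adjusted p between 0.076 and 0.105 where lost. Nor did it pass after median centring. Dnajb6, which holds back aggregation of polyglutamine proteins, had 131 ± 2.01 TPM in KO and 131 ± 3.36 TPM in WT, and Dnajb2, a neuronal J protein, 40.7 ± 0.813 TPM in KO and 37.9 ± 0.878 TPM in WT (SD, n = 3 each; limma adjusted p = 0.111).

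Of 24 class C genes 1 fell, beside 6.74% of all tested genes. Dnajc27, which encodes a small GTPase with a J-domain, had 43.5, 44.6 and 43.7 TPM in KO, against 49.5, 49.3 and 46.6 TPM in WT, 90.7% of WT with no overlap (log2 fold change -0.14 ± 0.04 SE; limma adjusted p = 0.047). The call held without WT replicate 3 (adjusted p = 0.034) and was lost without any other library, with adjusted p of 0.122, 0.095 and 0.119 without KO replicates 1, 2 and 3 and of 0.149 and 0.128 without WT replicates 1 and 2. It was also lost after median centring and after quantile normalization. The synaptic members gave narrow intervals around 0. Dnajc5, cysteine string protein of synaptic vesicles, had 317, 317 and 318 TPM in KO, against 324, 325 and 314 TPM in WT (95% interval -0.07 to 0.03). Dnajc6, auxilin, which brings Hspa8 to clathrin coats, had 172, 170.4 and 174 TPM in KO, against 173, 176 and 169 TPM in WT (95% interval -0.06 to 0.05). Groups overlapped for both, as they did for the endosomal Dnajc13. The most positive class C log2 fold change, which did not pass, was that of the histone chaperone Dnajc9, with 37.9 ± 1.46 TPM in KO and 34.3 ± 1.63 TPM in WT (SD, n = 3 each; 95% interval of the log2 fold change 0.03 to 0.25).

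No CCT subunit passed. The 7 measured subunits lay close together in level, from 216 to 374 TPM over all libraries, and their log2 fold changes ran from -0.02 to 0.05. Cct6a, the most abundant, had 374, 391 and 368 TPM in KO, against 374, 371 and 365 TPM in WT (95% interval -0.03 to 0.09). Cct5, with the smallest p, had 326, 336 and 338 TPM in KO, against 328, 319.6 and 319 TPM in WT (95% interval -0.01 to 0.11; limma adjusted p = 0.240). The groups overlapped for both. Tcp1, the remaining subunit of the ring that the name rule does not reach, had 266, 271 and 273 TPM in KO, against 269.6, 270.4 and 268 TPM in WT. Including it, none of 9 tested partners passed, a list that also held the prefoldins, which deliver actin and tubulin to the ring.

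The mitochondrial chaperonin pair did not pass beside Hspa9. Hspd1, Hsp60 of the matrix, had 338, 358 and 346 TPM in KO, against 338, 335 and 347 TPM in WT. Hspe1, its Hsp10 lid, had 190.1, 201 and 193 TPM in KO, against 203, 181 and 192 TPM in WT. The groups overlapped for both genes. The pair is transcribed in opposite directions at overlapping loci, and their ratio was 1.79 ± 0.00540 in KO and 1.77 ± 0.0968 in WT (SD, n = 3 each). Of the 8 members listed as mitochondrial Hspa9 rose and 7 did not pass, and of the 7 listed for the endoplasmic reticulum none passed. The share passing among all tested genes was 10.9%. Among the endoplasmic reticulum chaperones left out by the rule, Hspa5 fell to 92.5% of WT, with 371, 378 and 366 TPM in KO, against 397, 404 and 405 TPM in WT (log2 fold change -0.11 ± 0.02 SE; limma adjusted p = 0.017), and the other 4 did not pass.

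None of the 6 BAG genes passed. Bag1, the nucleotide exchange factor that links Hsp70 to the proteasome, had 220.1, 219.5 and 221 TPM in KO, against 225, 216 and 213 TPM in WT (95% interval -0.05 to 0.07). Bag2, which inhibits the ubiquitin ligase CHIP, had 26.4, 23.8 and 25.2 TPM in KO, against 24.6, 23.3 and 22.5 TPM in WT (95% interval -0.03 to 0.22). Groups overlapped for both. Bag4 and Bag6 held 38.3 ± 0.742 and 150.0 ± 2.38 TPM in KO, against 38.2 ± 0.381 and 149 ± 3.46 TPM in WT (SD, n = 3 each), and Bag5 had 51.4, 48.4 and 49.8 TPM in KO, against 52.8, 48.0 and 48.6 TPM in WT. The Hsp70 exchange factor Hspbp1 had 91.1 ± 3.87 TPM in KO and 93.0 ± 6.58 TPM in WT, and Hspbap1, named for binding Hspb1, 3.41 ± 0.317 TPM in KO and 3.95 ± 0.472 TPM in WT (SD, n = 3 each).

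Co-chaperones with other names were counted as well. None of 18 tested Hsp90 co-chaperones passed, among them Stip1, which joins Hsp70 to Hsp90, the kinase adaptor Cdc37, the ATPase activator Ahsa1 and p23 (Ptges3). Stip1 had 191, 195 and 197 TPM in KO, against 207, 203 and 197 TPM in WT, and the smallest adjusted p in the list was 0.058. None of 13 tested Hsp70 co-chaperones passed, among them St13 and the ubiquitin ligase gene Stub1, with a smallest adjusted p of 0.068. Over 41 tested genes, those of the Hsp90 and Hsp70 co-chaperone lists, the CCT partners and the small heat shock relatives, Cryab was the 1 that passed. Of all tested genes 10.9% passed.

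The 95% intervals show how closely these libraries fix each difference on the log2(TPM + 0.5) scale. They do not bound an effect of the knockout, because library-to-library spread could be technical and sex mix cannot be told apart from genotype. Of the 65 members that did not pass, 51 had a 95% interval that lay wholly within a 1.2-fold change in either direction and 31 within 1.1-fold, before any adjustment for the number of genes. Of the same 65, 61 lay within 1.5-fold. The 4 that did not were Hspb1, Hspb3, Hspa1l and the sperm flagellum gene Dnajb13. They averaged between 0.511 and 3.12 TPM over the 6 libraries. Hspb1, Hspa1l and Dnajb13 gave the widest intervals, and the interval of Hspb3 was about as wide as that of Hspa1b.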

How the data were processed

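Gene expression was measured by mRNA-seq. The authors deposited 1 table of gene values named as FPKM, but each deposited column sums to the fixed total of TPM, so the values were treated as TPM. Tools named by the submitters' processing notes, without role or order, are TopHat, featureCounts, edgeR, Picard 1.127, bcl2fastq 2.17 and FastQC 0.11.2, and the build is mm10. Counts were recovered with 1 constant per library and, for each gene, the smallest whole-number length that made all its values whole. Such a length was found for 100.0% of 19369 entries (tolerance 0.002, slightly wider at high counts). Because the length was searched for, this share is not an independent check. The counts summed to 19761692 to 23503623 per library. 1 count equalled 0.126 to 0.151 TPM for a 1 kb gene.

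All genes averaging 0.5 TPM or more were tested with limma 3.58.1 (R 4.3.3) on log2(TPM + 0.5) with a variance trend, so fold changes on this scale understate those of low genes. P-values were Benjamini-Hochberg adjusted over 14983 genes. The steps were tested on simulated data. Alternatives changed the pseudocount, filter, scaling, variance trend and replicate block, used limma's voom on the recovered counts scaled by library totals, or left out each library. Members and lists were chosen with earlier results of these data known. The members given in every library were those that passed with groups apart, the heat-inducible list, and, in classes with none passing, the most abundant member and that with the smallest p. Other members were named after their values were seen. The result of 1 list of cell type markers is not reported here.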

Additional observations from a re-analysis of the deposited data

How the results depend on the processing

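Of the 8 members that passed, Hspb8 held in all 17 alternatives and Hspa9 in all but the fit without a variance trend. Hspa1a passed in 9 of 17, Hsph1 in 7 and Hspa4l in 4. Members higher in KO numbered 1 without the low-value filter, 1 without the variance trend, 4 with voom on recovered counts, and 1 with any 1 library left out. Members lower in KO numbered 2 after median centring, 2 without the variance trend, and 1 to 3 with 1 library left out. All genes higher in KO numbered 406 without the trend, 1183 with voom and 345 to 440 with 1 library left out, and all genes lower 658 without the trend and 493 to 678 with 1 library left out. The median log2 fold change of members was 0.009 after median centring, -0.003 with voom and -0.021 to -0.001 with 1 library left out. The cause of these shifts was not tested. Voom scaled by library totals was chosen after seeing the data, in place of a planned fit with TMM factors that was not run. Leaving out genes on X and Y, also chosen after seeing the data, left 2 members higher and 6 lower.

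Same-numbered libraries did not deviate together (correlations of 0.01, -0.05 and 0.01), and differently numbered ones gave -0.04 to 0.03. With 3 libraries per group this cannot exclude a pairing, which the labels do not state. With a replicate block 1 member was higher and 1 lower, beside 360 and 585 over all genes.

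Signs turned only in members that did not pass. After quantile normalization the log2 fold change was -0.01 for Hsp90aa1, -0.02 for Hspa8 and 0.0097 for Dnajb1. For Dnajb1 and Hsp90ab1 it was 0.02 after median centring and 0.01 with voom. With 1 library left out it ranged from -0.03 to 0.02 for Dnajb1, from -0.01 to 0.02 for Hsp90ab1, from -0.09 to 0.0045 for Hspbp1, from -0.12 to 0.18 for Hspa1b, from -0.02 to 0.06 for Hspe1 and from -0.0034 to 0.03 for Bag1. Depth limits Hspb1, Hspb3, Hspa1a and Hspa1b, which rest on 12 to 217 counts per group.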
